A study of Mus musculus with 8 samples.

Results

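The 42 genes described here encode RNA polymerase I and the nucleolar proteins that make ribosomes. They were chosen by symbol from a fixed list, and 42 of 42 were found among the 14608 genes of the count table. RNA-seq compared undifferentiated spermatogonia (A_undiff), the population that holds the stem cells of the male germline, from C57BL/6J males 6 to 8 weeks of age. The mice were untreated (homoeostatic A_undiff, CTRL, 4 libraries) or had received a single dose of 10 mg/kg busulfan (BU), an alkylating agent that kills most spermatogonia, and were taken at day 10 (regenerative A_undiff, 4 libraries called BU 2 to BU 5). Cells positive for E-cadherin and α6-integrin (CD49f) and negative for c-KIT were sorted, and their cDNA was amplified by the single primer isothermal method (SPIA) before sequencing. Each group is described as 4 mice in the methods. Which mouse gave which library is not stated in the labels, and the tests therefore reflect variation among the libraries at hand, part of which may be technical.

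Ribosomes are assembled in the nucleolus, where RNA polymerase I transcribes the ribosomal RNA (rRNA) precursor. Small nucleolar ribonucleoproteins (snoRNPs) guide chemical modification of this precursor, the small subunit processome folds and cleaves the part that becomes the small subunit, and a separate set of factors assembles the large subunit. Growing and dividing cells need many ribosomes, and MYC family transcription factors, which bind the E-box CACGTG, are known to drive many of these genes.

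None of the 42 genes was a differentially expressed gene (DEG), here a gene with a Benjamini-Hochberg adjusted p under 0.05 in limma-voom and a fold change over 1.5. Of all genes tested, 6.8% were DEGs with higher counts in BU and 6.54% were DEGs with lower counts. At any fold change, 5 of the 42 rose, against 15.2% of all genes, and 7 fell, against 16.9%. At an unadjusted p under 0.05 there were 8 higher and 9 lower. The share of all genes at that threshold was not computed, so these counts cannot be set against a background. edgeR's quasi-likelihood test and DESeq2 also found 0 DEGs among the 42. The median log2 fold change, BU minus CTRL, was 0.00553 over the 42 genes and -0.00591 over all genes tested, with 22 of the 42 above 0 and 20 below. The most negative value was -0.45 for Rrp9 and the most positive was 0.46 for Ubtf.

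The changes that passed the test were small and went both ways within 3 of the 6 functional classes, RNA polymerase I, the box H/ACA snoRNPs and the large subunit factors. The transcription factors Ubtf and Rrn3 rose while the polymerase subunits Polr1a and Polr1c fell. Heatr1 and Wdr3 of the small subunit processome, Rrp9 of the U3 snoRNP, Nhp2 of the box H/ACA snoRNPs and the large subunit factor Noc2l fell. Dkc1 of the box H/ACA snoRNPs and the large subunit factors Mrto4 and Rrp1b rose.

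The 95% confidence interval of the fold change lay wholly within 1.5-fold for 40 of the 42 genes, the exceptions being Ubtf and Rrp9, and for 57% of all genes tested. It lay within 1.2-fold for 18 of the 42 and for 13.2% of all genes. These are abundant transcripts, with raw counts of a member from 164 to 21542 per library, and the median standard error (SE) of the log2 fold change was 0.0742 for the 42 genes and 0.126 for all genes.

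**Figure D1:**
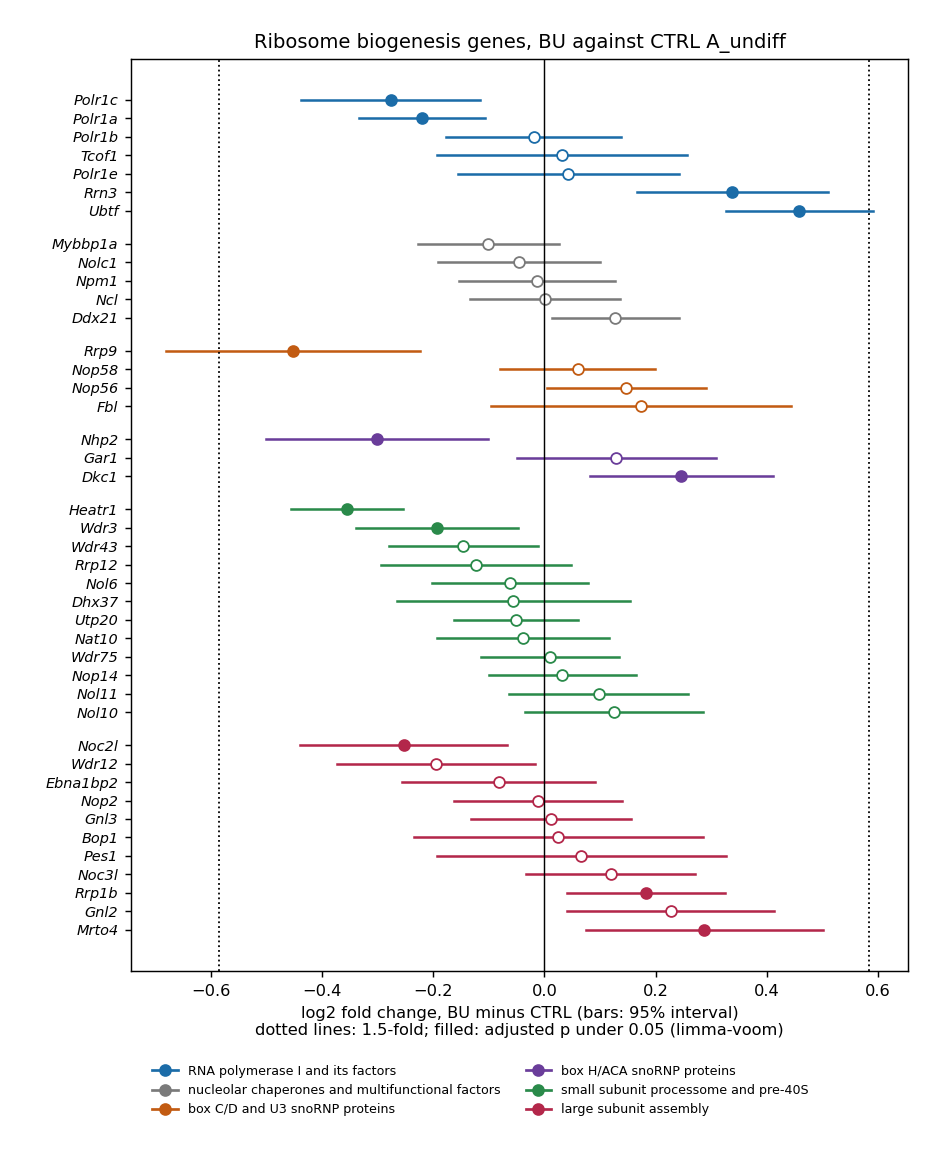
Log2 fold change (BU minus CTRL, x axis) of each of the 42 genes, grouped and coloured by role, with its 95% confidence interval as a bar and filled points for an adjusted p under 0.05 in limma-voom; dotted lines mark 1.5-fold. Every point lies between -0.45 (Rrp9) and 0.46 (Ubtf), inside the dotted lines.

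Library totals ranged from 18152779 to 23875108 counts in CTRL and from 17181963 to 24243985 in BU, and mitochondrial genes took 39.8% to 43.5% and 42.04% to 45.6% of them. Correlations of log2 CPM between libraries of a group were 0.988 to 0.993 in CTRL and 0.98 to 0.986 in BU. All 8 of the spermatogonial markers listed for the sorted population (Zbtb16, Sall4, Cdh1, Itga6, Ddx4, Dazl, Foxo1 and Lin28a) were counted. Their summed level was 1839 to 2114 CPM in CTRL and 1564 to 1729 CPM in BU. Of the 8, 1 rose and 5 fell at any fold change, and 3 of the falls were past 1.5-fold. Of 7 immune markers 4 were in the table and these 4 were all higher in BU, at 8.32 to 15.4 CPM summed in CTRL and 22.2 to 33.5 CPM in BU. All 4 endothelial markers gave 16.3 to 18.4 CPM in CTRL and 23.6 to 31.2 CPM in BU, and 1 of them rose past 1.5-fold. Of 6 Sertoli markers 4 were in the table, at 27.6 to 38.01 CPM and 34.1 to 47.2 CPM. Of these 4, 3 rose at any fold change, 2 of them past 1.5-fold. Of 5 peritubular and stromal markers 3 were in the table, at 54.4 to 58.8 CPM and 33.7 to 37 CPM. The stromal markers went opposite ways, with Col1a1 at 46.3 and 17.6 CPM and Pdgfra at 7.76 and 14.9 CPM (limma-voom adjusted p = 1.83e-08 and 0.000497), and Myh11 did not pass the test. Leydig cells were represented by Star alone, 1 of 4 markers, at 5.90 to 9.04 CPM and 6.62 to 7.74 CPM. The 5 spermatocyte and spermatid markers summed to 119 to 157 CPM and 118 to 146 CPM. Among these 5 markers 1 fell past 1.5-fold and 4 did not pass the test. The 4 markers of differentiating spermatogonia (Kit, Stra8, Dmrtb1 and Dnmt3b) summed to 112 to 143 CPM in CTRL and 198 to 273 CPM in BU. Of these 4, 3 rose past 1.5-fold and 1 did not change, with a log2 fold change of -0.00597. The part of these differences in the results below was not tested, and in bulk RNA a change in cell mixture and a change in RNA per cell cannot be told apart.

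CPM values, which are shares of the counts of a library, were scaled by TMM factors, which correct for differences in composition between libraries. Summed over the 42 genes they came to 5362, 5059, 5109 and 5269 in CTRL 1 to CTRL 4 and to 5100, 4916, 5082 and 5419 in BU 2 to BU 5. The groups overlapped, with BU 3 the lowest library and BU 5 the highest. As a share of all counts the 42 genes took 0.517% to 0.531% in CTRL and 0.501% to 0.519% in BU, and outside mitochondrial genes 0.871% to 0.931% and 0.877% to 0.954%. BU 5 held the highest value of 11 of the 42 genes and BU 3 the lowest value of 9.

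The groups did not overlap for 13 of the 42 genes. The 4 BU libraries were all above the 4 CTRL libraries for 6 (14.5% of all genes tested) and all below for 7 (15.9% of all genes). Of the 12 genes with an adjusted p under 0.05, only Noc2l overlapped. The other 2 of the 13 were Ddx21, with BU above, and Wdr12, with BU below, which did not pass the test.

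RNA polymerase I and its factors held the clearest rises. Ubtf encodes the upstream binding factor, a protein with HMG boxes that coats active rRNA genes (chr11:102304560-102319742, minus strand, GRCm38). Ubtf had 82.6, 82.1, 78.1 and 79.4 CPM in CTRL 1 to CTRL 4 and 100.2, 116, 111 and 115 CPM in BU 2 to BU 5. All 4 BU libraries were above every CTRL library, with BU 2 the lowest of them. The means were 80.6 ± 2.13 and 111 ± 7.21 CPM (SD, n = 4), a log2 fold change of 0.46 (SE 0.063, limma-voom adjusted p = 2.77e-05). Rrn3 encodes the initiation factor that joins RNA polymerase I to the rRNA promoter (chr16:13780699-13814840, plus strand). Rrn3 had 60.2, 71.7, 70.5 and 68.2 CPM in CTRL 1 to CTRL 4 and 74.4, 83.1, 97.4 and 87.8 CPM in BU 2 to BU 5. The groups did not overlap, although BU 2 was close to CTRL 2. The means of Rrn3 were 67.6 ± 5.14 and 85.7 ± 9.56 CPM (SD, n = 4), a log2 fold change of 0.34 (SE 0.081, limma-voom adjusted p = 0.00402).

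The E-box was searched for in promoters because it is the site of MYC family proteins, and Rrn3 was the only gene with an adjusted p under 0.05 whose promoter held it. Promoters are those of RefSeq on GRCm38.p6, from 250 bases before to 50 bases after the annotated start, read in the sense of the gene. Rrn3 holds the motif at 2 places, starting 215 and 48 bases before the start (chr16:13780449-13780748, plus strand), and capitals mark it.
Rrn3: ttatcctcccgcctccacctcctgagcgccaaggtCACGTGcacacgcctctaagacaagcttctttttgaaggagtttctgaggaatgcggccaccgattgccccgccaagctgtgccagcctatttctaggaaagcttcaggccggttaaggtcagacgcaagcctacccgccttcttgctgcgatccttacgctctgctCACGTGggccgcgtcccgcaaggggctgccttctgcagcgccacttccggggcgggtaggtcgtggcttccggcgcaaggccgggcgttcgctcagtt

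The motif CACGTG reads the same on both strands. Of the 42 genes 35 matched a promoter entry, and 7 of the 35 (20%) held the motif, against 12.1% of 10050 tested genes with an entry, 21.3% of 108 other ribosome biogenesis genes and 10.2% of 59 cytosolic ribosomal protein genes. Tcof1, Npm1, Fbl, Rrp12, Nol6, Bop1 and Gnl2 had no entry. Beside Rrn3, the holders were Wdr43, Mybbp1a, Nol11, Utp20, Pes1 and Nop2, none of which passed the test between BU and CTRL. Their sites are shown, with the bases around them, because they are the other places where the E-box occurred in this gene set, and capitals again mark the motif. Windows are shorter where the promoter entry ends.
Wdr43 (chr17:71615965-71616264, plus strand): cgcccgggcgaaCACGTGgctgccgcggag
Mybbp1a (chr11:72441077-72441376, plus strand): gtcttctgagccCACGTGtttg
Nol11 (chr11:107189332-107189631, minus strand): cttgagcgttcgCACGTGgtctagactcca
Utp20 (chr10:88826765-88827064, minus strand): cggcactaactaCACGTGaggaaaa
Pes1 (chr11:3963725-3964024, plus strand): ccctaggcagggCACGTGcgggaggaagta
Nop2 (chr6:125131633-125131932, plus strand): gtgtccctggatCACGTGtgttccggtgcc

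The log2 fold changes of these 6 genes lay between -0.15 (Wdr43) and 0.10 (Nol11), and a link between the site and expression was not tested. The coordinates give the whole promoter entry that holds each site.

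Polr1a encodes the largest subunit of RNA polymerase I (chr6:71909053-71984935, plus strand). Polr1a had 187, 178, 189 and 185 CPM in CTRL 1 to CTRL 4 and 149, 163, 157 and 166 CPM in BU 2 to BU 5. The BU libraries were all below the lowest CTRL library, CTRL 2. The means of Polr1a were 185 ± 5.01 and 159 ± 7.68 CPM (SD, n = 4), a log2 fold change of -0.22 (SE 0.054, limma-voom adjusted p = 0.00435). Polr1c encodes a subunit that RNA polymerases I and III share (chr17:46243920-46248054, minus strand), and had the highest level per length of this class. Polr1c had 71.3, 69.0, 67.5 and 62.1 CPM in CTRL 1 to CTRL 4 and 57.5, 61.3, 49.5 and 53.8 CPM in BU 2 to BU 5. BU 3 and CTRL 4 were close neighbours, but the groups did not overlap. This was a log2 fold change of -0.28 for Polr1c (SE 0.076, limma-voom adjusted p = 0.0101).

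The other genes of this class did not pass the test. Polr1b, which encodes the other large catalytic subunit, had a log2 fold change of -0.02, and Polr1e, which encodes a subunit of the polymerase-associated pair, had 0.04. Tcof1 encodes treacle, a nucleolar phosphoprotein that binds the upstream binding factor, and had 0.03. The class as a whole had 2 rises, 2 falls and a median of 0.03.

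The small subunit processome held the most precise fall. Heatr1 encodes a large HEAT-repeat protein of the complex that first binds the rRNA precursor, and is needed for its transcription as well (chr13:12395027-12440289, plus strand). Heatr1 had 497, 494, 517 and 537 CPM in CTRL 1 to CTRL 4 and 410.0, 374, 414 and 406 CPM in BU 2 to BU 5. The gap between the groups was wide, from 414 CPM in BU 4 to 494 CPM in CTRL 2. The means of Heatr1 were 511 ± 19.9 and 401 ± 18.4 CPM (SD, n = 4), a log2 fold change of -0.36 (SE 0.048, limma-voom adjusted p = 2.42e-05), and its level per length was the highest of this class.

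Wdr3 encodes a WD-repeat protein of the processome. Wdr3 had 59.7, 65.2, 63.5 and 59.5 CPM in CTRL 1 to CTRL 4 and 57.6, 55.1, 54.0 and 49.6 CPM in BU 2 to BU 5. The groups did not overlap, with CTRL 4 only just above BU 2. Wdr3 had a log2 fold change of -0.19 (SE 0.069, limma-voom adjusted p = 0.0404), and the adjusted p rose above 0.05 without any 1 of CTRL 1, CTRL 2, CTRL 3, CTRL 4, BU 4 and BU 5, to 0.119 at most, without BU 5. Exons of Gdap2 and Spag17 on the opposite strand cover 16.2% of the exonic bases of Wdr3, and since the strand setting is not known, reads of both strands cannot be told apart.

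The other 10 genes of the class lay between -0.15 and 0.13 on the log2 scale. Wdr43 and Wdr75, which work in the same early complex as Heatr1, had -0.15 and 0.01, and Nol11, a further protein of that complex, had 0.10. Nop14, a core processome protein, had 0.03, and Utp20, a large scaffold protein, had -0.05. Nol6 and Nol10, also processome proteins, had -0.06 and 0.13. Nat10, the acetyltransferase of small subunit rRNA, had -0.04, Dhx37, the helicase that releases the U3 snoRNA, had -0.06, and Rrp12, which takes part in export of the small subunit precursor, had -0.12. The median of the 12 was -0.05, with 0 rises and 2 falls.

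Among the box C/D and U3 snoRNP proteins, only Rrp9 passed the test. Rrp9 encodes the protein that binds the U3 snoRNA alone (chr9:106475963-106485424, plus strand). Rrp9 had 15.2, 15.3, 14.4 and 14.2 CPM in CTRL 1 to CTRL 4 and 11.98, 10.6, 10.6 and 9.96 CPM in BU 2 to BU 5. All BU libraries were below every CTRL library. The means of Rrp9 were 14.8 ± 0.555 and 10.8 ± 0.847 CPM (SD, n = 4), a log2 fold change of -0.45 (SE 0.108, limma-voom adjusted p = 0.00395).

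The 3 core proteins of the box C/D snoRNPs carry the snoRNAs that guide methylation of rRNA. Their genes had positive values that did not pass the test. Fbl encodes fibrillarin, the methyltransferase, and had a log2 fold change of 0.17 with a 95% interval of -0.10 to 0.44. Nop58, a scaffold of the complex, had 0.06. Nop56, the paired scaffold and the gene of this class with the highest level per length, had 136, 128, 129.6 and 151 CPM in CTRL 1 to CTRL 4 and 136, 149, 159 and 160.4 CPM in BU 2 to BU 5. The groups overlapped, and BU 2 was as low as CTRL 1, while the log2 fold change of Nop56 was 0.15 (SE 0.068, limma-voom adjusted p = 0.109).

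The box H/ACA proteins carry the snoRNAs that guide pseudouridine formation, and 2 of the 3 moved in opposite directions. Dkc1 encodes dyskerin, the pseudouridine synthase. Dkc1 had 56.1, 51.3, 54.0 and 58.0 CPM in CTRL 1 to CTRL 4 and 59.5, 62.4, 64.7 and 75.8 CPM in BU 2 to BU 5. The groups did not overlap, and BU 5 was the highest library. The log2 fold change of Dkc1 was 0.25 (SE 0.078, limma-voom adjusted p = 0.0221), with an adjusted p of 0.0674 without CTRL 2, 0.06 without CTRL 3 and 0.0763 without BU 5.

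Nhp2 encodes a small RNA-binding core protein of the same particle. Nhp2 had 26.3, 29.4, 29.9 and 25.8 CPM in CTRL 1 to CTRL 4 and 24.9, 21.6, 24.1 and 19.99 CPM in BU 2 to BU 5. The groups did not overlap, with BU 2 just below CTRL 4. Nhp2 had a log2 fold change of -0.30 (SE 0.095, limma-voom adjusted p = 0.022), with an adjusted p of 0.0583 without CTRL 2, 0.0785 without CTRL 3, 0.0501 without BU 3 and 0.0668 without BU 5. Gar1, the core protein that helps release the modified RNA and the highest of the 3 per length, had 44.9, 43.6, 41.5 and 37.4 CPM in CTRL 1 to CTRL 4 and 50.3, 40.7, 44.7 and 48.5 CPM in BU 2 to BU 5. The groups overlapped, and the log2 fold change of Gar1 was 0.13 (SE 0.085, limma-voom adjusted p = 0.268).

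**Figure D2:**
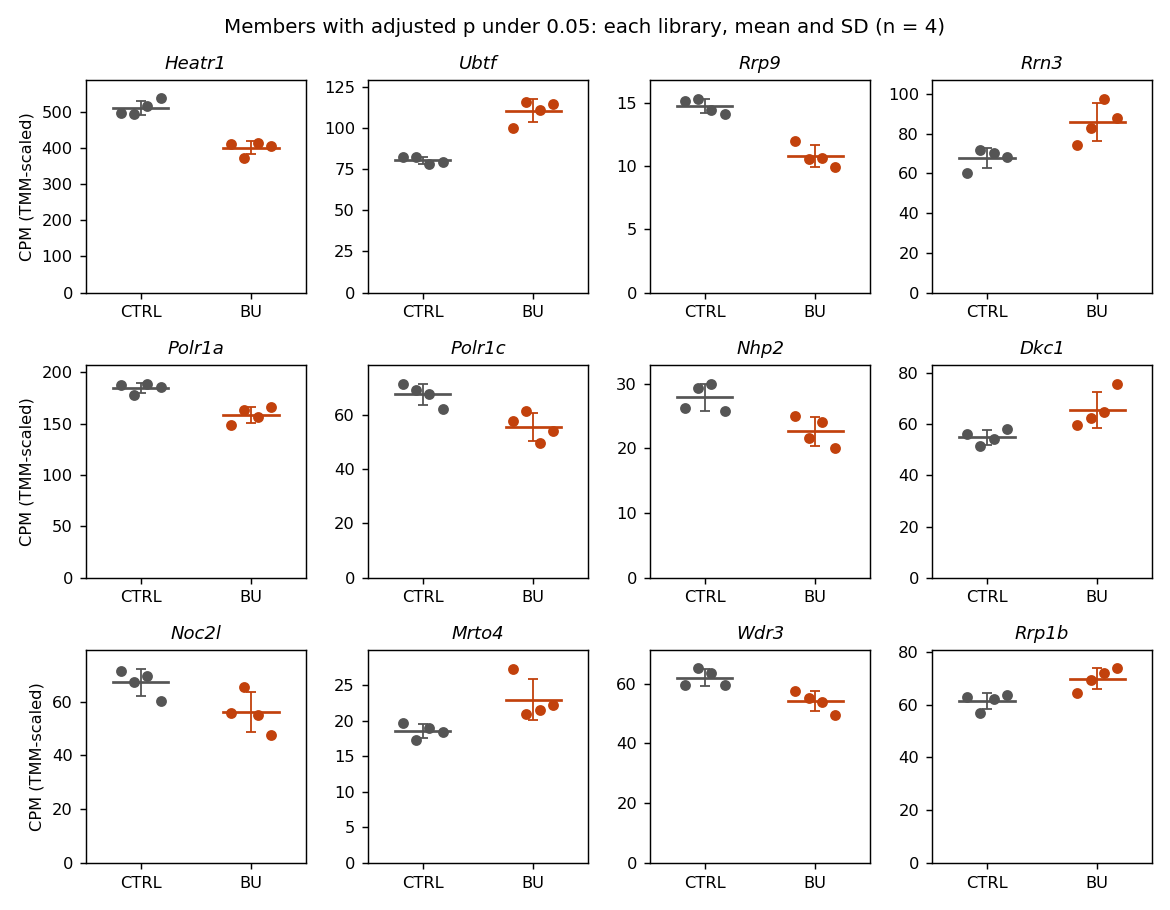
TMM-scaled CPM (y axis, from 0, 1 panel a gene) in each CTRL and BU library for the 12 genes with an adjusted p under 0.05 in limma-voom; points are libraries, lines the mean and bars the SD (n = 4 a group). The groups separate in 11 panels, and in the panel of Noc2l the BU library at 65.6 CPM lies above the CTRL library at 60.2 CPM.

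Among the 11 large subunit factors 2 rose and 1 fell. Mrto4 encodes a relative of the stalk protein P0 that holds its place on the immature subunit. Mrto4 had 19.7, 17.2, 18.9 and 18.5 CPM in CTRL 1 to CTRL 4 and 27.2, 20.9, 21.5 and 22.2 CPM in BU 2 to BU 5. BU 2 stood highest and the groups did not overlap. Mrto4 had a log2 fold change of 0.29 (SE 0.101, limma-voom adjusted p = 0.0377), and the adjusted p was 0.0968 without CTRL 2, 0.0714 without CTRL 3, 0.0806 without CTRL 4, 0.112 without BU 2 and 0.0543 without BU 5. Mrto4 has 2 named pseudogenes, between which and the gene reads can be shared.

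Rrp1b encodes a nucleolar protein of the large subunit precursor. Rrp1b had 62.8, 56.9, 62.1 and 63.7 CPM in CTRL 1 to CTRL 4 and 64.5, 69.2, 71.8 and 73.8 CPM in BU 2 to BU 5. BU 2 was only just above CTRL 4. The log2 fold change of Rrp1b was 0.18 (SE 0.068, limma-voom adjusted p = 0.0471), and the adjusted p rose above 0.05 without any 1 of the 4 CTRL libraries, BU 3, BU 4 and BU 5, to 0.141 at most, without CTRL 2.

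Noc2l encodes a nucleolar protein that accompanies the large subunit precursor out of the nucleolus. Noc2l had 71.4, 67.5, 69.7 and 60.2 CPM in CTRL 1 to CTRL 4 and 55.9, 65.6, 55.1 and 47.5 CPM in BU 2 to BU 5. The groups overlapped through BU 3 and CTRL 4. Noc2l had a log2 fold change of -0.25 (SE 0.088, limma-voom adjusted p = 0.0365), and the adjusted p rose above 0.05 without any 1 of CTRL 1, CTRL 2, CTRL 3, BU 2, BU 4 and BU 5, to 0.124 at most, without BU 5. Exons of Samd11 on the opposite strand cover 20.9% of its exonic bases.

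The other 8 large subunit genes did not pass the test. Bop1, Pes1 and Wdr12 encode the 3 proteins of the PeBoW complex and had log2 fold changes of 0.02, 0.07 and -0.19. Wdr12 had 33.14 to 34.5 CPM in CTRL and 26.01 to 33.05 CPM in BU (limma-voom adjusted p = 0.0901). Gnl2, a GTPase of the large subunit precursor, had 0.23, with an adjusted p of 0.0585 in limma-voom. This p was 0.0381 without CTRL 1, 0.0328 without BU 2 and 0.0186 without BU 4. Over the 17 alternatives described below it was under 0.05 in 6 and reached 0.634. The log2 fold change of Gnl2 went as low as 0.06 in them. BU 3 and BU 5 had 149 and 148 CPM. BU 2 and BU 4, at 122 and 115 CPM, lay inside the CTRL range of 97.6 to 125 CPM.

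Gnl3 encodes nucleostemin, a GTPase known from stem cells, and had the highest level per length of this class. Gnl3 had 96.5, 87.5, 88.6 and 87.5 CPM in CTRL 1 to CTRL 4 and 86.9, 92.0, 83.7 and 102 CPM in BU 2 to BU 5. The CTRL values lay inside the range of the BU values, and the log2 fold change of Gnl3 was 0.01 (SE 0.068, limma-voom adjusted p = 0.913). Nop2, a methyltransferase of large subunit rRNA, had -0.01, Noc3l, a partner of the Noc2l family, had 0.12, and Ebna1bp2, an early assembly factor, had -0.08.

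The 5 nucleolar chaperones and multifunctional factors held the most abundant genes and no change that passed the test. Npm1 encodes nucleophosmin, the histone and ribosome chaperone of the outer nucleolus. Npm1 had 725, 605.5, 639.6 and 717 CPM in CTRL 1 to CTRL 4 and 645, 607, 662 and 763 CPM in BU 2 to BU 5. The groups overlapped almost fully, and the log2 fold change of Npm1 was -0.01 with a 95% interval of -0.15 to 0.13 (limma-voom adjusted p = 0.904). Ncl encodes nucleolin, which binds the rRNA precursor. Ncl had 998, 958, 884 and 919 CPM in CTRL 1 to CTRL 4 and 1013, 799.5, 977 and 1001 CPM in BU 2 to BU 5, so BU held both the highest and the lowest library. The log2 fold change of Ncl was 0.00115 with a 95% interval of -0.13 to 0.14.

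Ddx21, an RNA helicase of the nucleolus, had 133 to 140.2 CPM in CTRL and 142 to 157 CPM in BU without overlap, a log2 fold change of 0.13 (limma-voom adjusted p = 0.081). Nolc1, which chaperones snoRNPs, had -0.05, and Mybbp1a, which binds Myb and RNA polymerase I, had -0.10.

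Levels between genes were compared as CPM per kb of exon. Npm1 was the highest of the 42 at 252 CPM per kb in CTRL and 251 in BU, and Wdr12 the lowest at 2.81 and 2.48. Ncl followed Npm1 at 92.2 and 93.0, and then Heatr1 at 65.3 in CTRL and 51.2 in BU. Nop14, at 56.9 in CTRL and 58.3 in BU, stood below Heatr1 in CTRL and above it in BU. Lengths sum all annotated exons of a gene, so a gene with a rare long transcript is given too low a level per length. The gene models of Ncl, Nop56, Nop58, Dkc1, Wdr43 and Gnl3, 6 of the 42, also span annotated snoRNA genes.

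**Figure D3:**
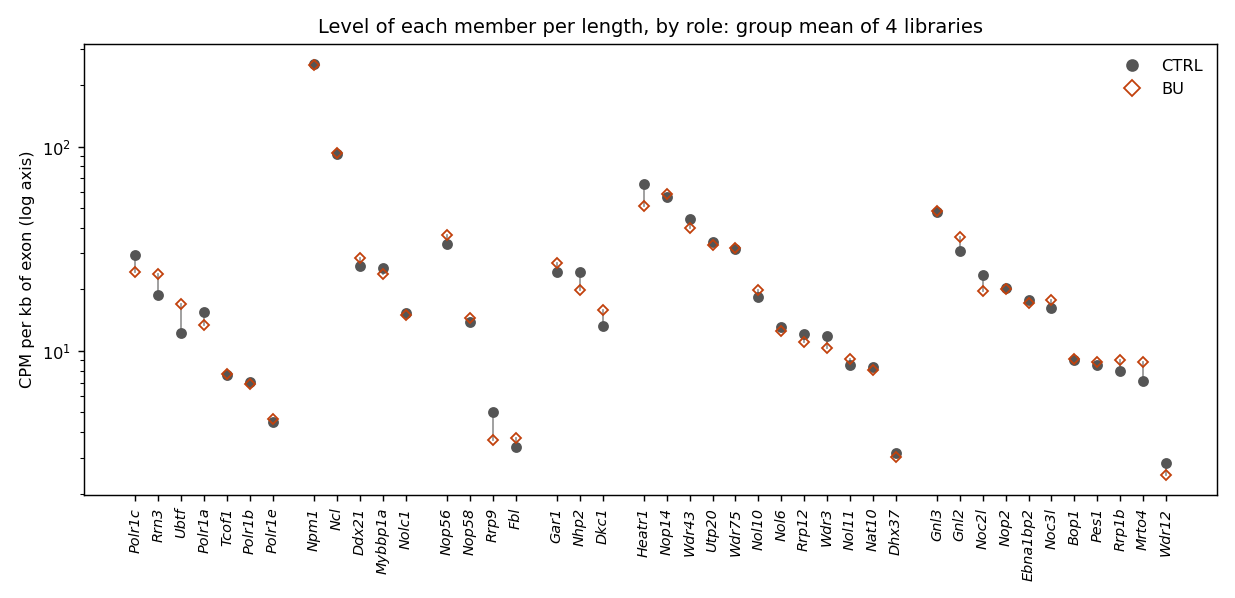
Mean level per length (CPM per kb of exon, log axis) of each of the 42 genes in CTRL (filled) and BU (open), ordered within each role; each point is the mean of 4 libraries. The paired points lie close together for every gene against a range from Npm1 (252 in CTRL) to Wdr12 (2.81 in CTRL).

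The rest of the pathway was read from 5 further lists of 130 genes in all. Of the 130, 16 rose (12.3%) and 16 fell (12.3%) at any fold change, 1 in each direction past 1.5-fold. The shares of all genes, 15.2% higher and 16.9% lower at any fold change, are the background for each list below. The median log2 fold change of the 130 was -0.00834, against -0.00591 for all genes. Sbds, which releases a block on the large subunit before it joins the small one, fell from 28.0 to 18.4 CPM (log2 fold change -0.60, limma-voom adjusted p = 0.00028). The helicase gene Ddx55 rose from 11.5 to 17.7 CPM (log2 fold change 0.61, limma-voom adjusted p = 0.000701). Both sit close to the 1.5-fold line. Sbds was at -0.53 without CTRL 1 and -0.54 without BU 4, and Ddx55 at 0.53 without CTRL 2 and 0.55 without BU 4, which is inside it.

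Among 9 further RNA polymerase I and SL1 genes 1 rose and 0 fell. Taf1b, a subunit of the SL1 factor that binds the rRNA promoter, rose from 22.7 to 28.1 CPM (limma-voom adjusted p = 0.0272), and the polymerase subunit gene Cd3eap had 7.64 and 9.89 CPM (limma-voom adjusted p = 0.0565). Among 44 further small subunit genes 6 rose and 4 fell. Utp14b rose from 86.1 to 109 CPM (limma-voom adjusted p = 0.000573), and the processome gene Wdr46 rose from 50.9 to 75.8 CPM (limma-voom adjusted p = 0.000772). Among 51 further large subunit genes 6 rose and 10 fell. Mdn1, chosen after its values were seen, encodes the giant ATPase that remodels the large subunit, and fell from 2123 to 1559 CPM (log2 fold change -0.45, limma-voom adjusted p = 4.13e-06).

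Among 12 snoRNP assembly genes 0 rose and 1 fell, Nop10, the partner of Dkc1, Gar1 and Nhp2, from 27.7 to 22.6 CPM (limma-voom adjusted p = 0.0385). Shq1, a chaperone of dyskerin, had 18.7 and 22.2 CPM (limma-voom adjusted p = 0.0534). Of the 4 core H/ACA proteins, then, Nhp2 and Nop10 fell, Dkc1 rose and Gar1 did not pass the test. The groups overlapped for Nop10, with BU 2 at 28.85 CPM above CTRL 4 at 26.54 CPM, and Nop10 was not recomputed in the alternatives. Nhp2 and Dkc1 lost the adjusted p under 0.05 in some of them. Among 14 genes of the RNA exosome and rRNA trimming 3 rose and 1 fell, with the exonuclease gene Xrn2 falling from 275 to 236 CPM (limma-voom adjusted p = 0.00394) and the exosome nuclease gene Dis3 rising from 98.5 to 119 CPM (limma-voom adjusted p = 0.00653).

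The other RNA polymerases moved as little. Of 21 genes of RNA polymerase III and its factors 3 rose and 2 fell, Gtf3c2 from 39.9 to 51.6 CPM (limma-voom adjusted p = 0.00116) and Polr3e from 41.7 to 31.8 CPM (limma-voom adjusted p = 0.000725) among them. Of 13 shared and RNA polymerase II subunit genes 2 rose and 1 fell, with Polr2b at 259 and 313 CPM (limma-voom adjusted p = 0.00052) and Polr2g at 56.1 and 42.9 CPM (limma-voom adjusted p = 0.00335).

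Cytosolic ribosomal protein genes, which encode the proteins that the 42 genes help to assemble, stood lower. Of 82, 3 rose (3.66%) and 24 fell (29.3%) at any fold change, against 15.2% and 16.9% of all genes. The median log2 fold change was -0.17, with 65 of the 82 below 0. Summed over the 82 genes the groups overlapped, at 5598 to 6208 CPM in CTRL and 4800 to 5698 CPM in BU. Past 1.5-fold, Rps4x fell from 26.4 to 17.5 CPM (limma-voom adjusted p = 9.2e-05) and Rpl39 rose from 8.35 to 13.3 CPM (limma-voom adjusted p = 0.00202). Many cytosolic ribosomal protein genes have processed pseudogenes that can share their reads. The 79 mitochondrial ribosomal protein genes had a median of -0.00961, with 6 rises and 7 falls, and past 1.5-fold Mrpl10 rose from 8.01 to 11.9 CPM (limma-voom adjusted p = 0.00355) and Mrpl14 fell from 8.97 to 5.33 CPM (limma-voom adjusted p = 0.00297).

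Most genes for snoRNA hosts and rRNA-processing RNAs also stood lower. Of 17, 1 rose (5.88%) and 7 fell (41.2%), against 15.2% and 16.9% of all genes. In all, 15 of the 17 were below 0, with a median log2 fold change of -0.36. The most abundant of the list, Gm26917, chosen after its values were seen, went the other way. It had 2672 to 4853 CPM in CTRL and 3753 to 6455 CPM in BU, and the groups overlapped. With Gm26917 the list summed to 3296 to 5475 CPM in CTRL and 4248 to 6977 CPM in BU. Past 1.5-fold, the snoRNA hosts Snhg8 and Snhg12 and the telomerase RNA gene Terc fell, to 3.38, 4.49 and 1.92 CPM from 5.53, 6.80 and 3.54 CPM (limma-voom adjusted p = 0.00668, 0.00539 and 0.0351). Terc lost the adjusted p under 0.05 without CTRL 1, CTRL 2, CTRL 3, BU 4 or BU 5 (0.115 at most, without BU 4), Snhg12 was at -0.56 and inside 1.5-fold without BU 3, and Snhg8 had an adjusted p of 0.132 without BU 3 and BU 5 together. The most abundant host to fall, Gas5, was chosen after its values were seen. Gas5 had 124, 120.2, 109.8 and 101 CPM in CTRL 1 to CTRL 4 and 97.8, 76.7, 78.9 and 67.1 CPM in BU 2 to BU 5, without overlap (log2 fold change -0.51, limma-voom adjusted p = 0.0004).

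In the MYC network 0 of 10 genes rose and 4 fell (40%), against 15.2% and 16.9% of all genes. Of the falls, 3 were past 1.5-fold. Myc itself is absent from the count table and is not among these 10, so its level is not known here. Mycn, a MYC family activator, fell from 29.2 to 17.4 CPM (log2 fold change -0.75, limma-voom adjusted p = 0.000173). Mycl, its relative, fell from 7.84 to 3.10 CPM (log2 fold change -1.36, limma-voom adjusted p = 0.000685). Mga, which pairs with MAX and represses, fell from 740.0 to 490.5 CPM (log2 fold change -0.59, limma-voom adjusted p = 1.51e-07), and was inside 1.5-fold, at -0.56, without CTRL 1 or without BU 4, and at -0.58 with upper-quartile scaling or among genes with a mean CPM of at least 5. Max, the common partner, also chosen after its values were seen, had 78.7 and 76.9 CPM (limma-voom adjusted p = 0.789). Of 11 genes that link ribosome stress to p53, 0 rose and 2 fell, Rpl23 from 32.3 to 24.6 CPM (limma-voom adjusted p = 0.00534) and Mdm4 from 309 to 282 CPM (limma-voom adjusted p = 0.0467).

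Cycling genes stood far from the 42. All 14 rose at any fold change and 6 rose past 1.5-fold, with log2 fold changes from 0.25 to 1.29 and a median of 0.56. Mki67, the marker of proliferation, rose from 489.5 to 967 CPM (log2 fold change 0.98, limma-voom adjusted p = 8.02e-10), and Top2a, the topoisomerase of dividing cells, from 276 to 483 CPM (log2 fold change 0.81, limma-voom adjusted p = 3.74e-09). In the same libraries the medians were 0.00553 for the 42 genes and -0.00834 for the other 130. These medians describe the lists and were not tested against each other.

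**Figure D4:**
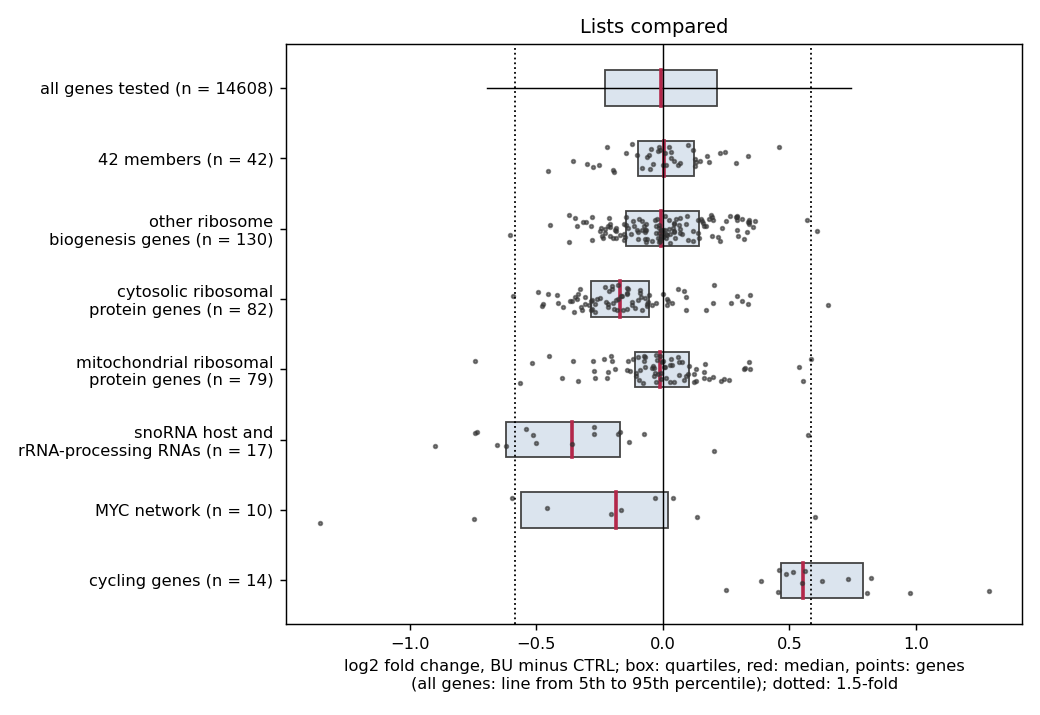
Log2 fold change (BU minus CTRL, x axis) of the genes of 8 sets; points are genes, boxes the quartiles, red lines the medians, dotted lines 1.5-fold, and for all genes the line runs from the 5th to the 95th percentile. The medians of the 42 genes (0.00553) and the 130 further biogenesis genes (-0.00834) lie at 0. Those of cytosolic ribosomal protein genes (-0.17) and of snoRNA hosts and rRNA-processing RNAs (-0.36) lie below 0. That of cycling genes (0.56) lies above it.

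Of the 12 genes with an adjusted p under 0.05, Heatr1, Ubtf, Rrp9, Rrn3, Polr1a and Polr1c, 6 in all, kept it in each of 17 alternatives, the exception being limma's treat test against 1.5-fold, which none of the 42 passed. Dkc1, Nhp2, Wdr3, Rrp1b, Noc2l and Mrto4 lost it in some. Without BU 3 and BU 5 together the adjusted p was 0.118 for Dkc1, 0.236 for Nhp2, 0.187 for Wdr3 and 0.188 for Rrp1b. With library totals in place of TMM it was 0.0618 for Mrto4, 0.101 for Rrp1b and 0.0547 for Wdr3, and with upper-quartile scaling 0.0575 for Wdr3. The number of rises went from 5 to 2 without CTRL 2, without CTRL 3 or without BU 5, and the number of falls from 7 to 4 without CTRL 3.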

How the data were processed

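A_undiff RNA of 8 samples was sequenced as paired-end reads and run through the RNAsik pipeline by the authors, with comparison by limma-voom in Degust. GRCm38, featureCounts, limma and edgeR are named in the submitters' processing notes. The aligner, the release of the annotation and whether strand was counted are not given in the sources used here. Amplification by SPIA may shift the yield of some transcripts against others. The authors deposited raw read counts per gene for each library, which were the input of every test, and gene lengths in bases. The authors also deposited 8 per-sample CPM columns, a column of log2 fold changes with mean log2 CPM, and p-values with adjusted p-values from their own comparison, none of which was used.

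BU columns are numbered 2 to 5 and the labels otherwise, so they were assigned to the group. The table lists 14608 genes, filterByExpr removed 0, and 1 symbol stands for more than 1 locus. Counts were scaled by TMM and tested with limma-voom (limma 3.58.1, edgeR 4.0.16, R 4.3.3) with group as the only term, and p-values were adjusted by Benjamini-Hochberg over all genes. The cut-off of 1.5-fold is the one used in the paper's methods. The code was tested on simulated data. Intervals are 95% intervals from the moderated limma fit. Values in each library are given for members with an adjusted p under 0.05 and for the most abundant member of each role, and of each comparison list the genes past 1.5-fold are named where there are 1 to 4 of them, and otherwise the 2 genes with the smallest adjusted p. Other genes are said to be chosen after their values were seen. The members and lists were chosen with earlier results of these data known. The results were recomputed with DESeq2 (1.42.0), with the quasi-likelihood test of edgeR, with treat, with other scalings, with a mean CPM of at least 5, without mitochondrial genes, with quality weights, with each library left out in turn, and with BU 3 and BU 5, a pair doubted in an earlier analysis of these data, left out together. Gene models came from GENCODE on GRCm38 and promoters from RefSeq. Python 3.11.15 with pandas 2.3.3 made tables and plots.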

Additional observations from a re-analysis of the deposited data

Results flagged for a closer look

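In each of 86 groups of 4 libraries, the 42 genes in CTRL and in BU and the summed CPM of the 42 genes in each group, the highest or lowest library was compared with the others by the size of its gap. In 4 of them a library stood apart, 1 in BU and 3 in CTRL, and chance alone picks about 1 group in 20. Ncl was lowest in BU 3, at 799.5 CPM against 977.3 to 1013 CPM in the other BU libraries. Ddx21 was highest in CTRL 2, at 140.2 CPM against 132.8 to 133.7 CPM in the other CTRL libraries. Nol6 was highest in CTRL 1, at 73.12 CPM against 66.66 to 67.49 CPM. Gnl3 was also highest in CTRL 1, at 96.46 CPM against 87.49 to 88.55 CPM. None of these 4 genes had an adjusted p under 0.05 in limma-voom.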

How the results depend on the processing

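No member was a DEG in any alternative. The number of members that rose at any fold change was 5, and it was 0 by treat, 3 with library totals only, 3 without BU 3 and BU 5, 2 to 6 with 1 library left out, 7 by DESeq2 and 5 or 6 in the other alternatives. The number that fell was 7, and it was 0 by treat, 5 without BU 3 and BU 5, 4 to 6 with 1 library left out, and 6 or 7 in the others. Treat asks for more than 1.5-fold by its construction. The cause of the other shifts was not tested. The members' median of 0.00553 was -0.018 with library totals only, -0.0218 without BU 3 and BU 5, and -0.0126 to 0.0335 with 1 library left out. Of the 42 members, 12 changed sign in at least 1 alternative, none of them with an adjusted p under 0.05. Of the 30 members that did not pass, Ddx21, Nop56, Wdr43, Wdr12 and Gnl2, 5 in all, passed in at least 1 alternative. No paired analysis was possible because the BU columns do not carry the replicate numbers of the labels. With 4 libraries a group, changes below about the width of the intervals given above could not be resolved.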
